A study of Mus musculus with 24 samples.

Results

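The Toll-like receptor genes Tlr1, Tlr2, Tlr3, Tlr4, Tlr6, Tlr7, Tlr9, Tlr11 and Tlr13, with Unc93b1, were followed across 2 subsets of mouse spleen dendritic cells, 2 strains and 2 injections. Members were chosen by gene symbol, and each was read from the probe set that the platform annotation gives to that symbol alone. A single probe set was found for 9 of the 10 genes, and Tlr11 was not analysed here. The 9 passed the filter on low values and were tested among 11228 genes, of 19938 genes with a value. Their probe set and gene identifiers in the annotation were 10530145 and 21897 for Tlr1, 10498992 and 24088 for Tlr2, 10505517 and 21898 for Tlr4, and 10530151 and 21899 for Tlr6. They were 10578493 and 142980 for Tlr3, 10607870 and 170743 for Tlr7, 10588479 and 81897 for Tlr9, 10601385 and 279572 for Tlr13, and 10460237 and 54445 for Unc93b1.

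Toll-like receptors are membrane proteins that bind conserved microbial structures and signal through the adaptors MyD88 and TRIF to NF-kB and interferon regulatory factors. TLR1, TLR2, TLR4 and TLR6 act mostly at the cell surface on lipopeptides and lipopolysaccharide, whereas TLR3, TLR7, TLR9 and TLR13 sense RNA or DNA inside endosomes. UNC93B1 is the chaperone that carries the endosomal receptors there from the endoplasmic reticulum, and spleen conventional dendritic cells (cDC) are known to differ by subset in which of these receptors they express.

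Each array held RNA of CD11c+ cDC sorted as CD8+ or CD11b+ from collagenase-digested spleens of female mice aged 8 to 10 weeks. The mice were nonobese diabetic (NOD/ShiLt, here NOD), a strain with spontaneous autoimmune diabetes, or C57BL/6 (here B6), and carried no transgene or deletion named in the labels. Spleens were taken 12 h after PBS or after CpG-A, a class A oligonucleotide with unmethylated CpG motifs and a ligand of TLR9. The 8 groups are thus CD8+ and CD11b+ cDC of B6 and NOD mice after PBS and after CpG-A (CpG below), with 3 arrays each and 24 in all. Whether the 3 arrays of a group stand for different mice is not given in the sources used here, and the tests reflect no more than the variation among these arrays, possibly technical.

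Values are log2 expression values deposited by the authors, and differences are log2 differences ± their standard error from limma (n = 3 in each group). Rose, fell, higher and lower are used of differences with a Benjamini-Hochberg adjusted p under 0.05 over all genes tested. A level of one gene's probe set cannot be set against that of another gene on such arrays, so levels are compared only within a gene. The array medians ran from 5.79 to 5.87, and a value below its array's median is treated as near background. In 1 group, NOD CD8+ cDC after CpG, the arrays stood apart from one another. They lay at 53.5, 32.5 and 17.4 on the first principal component, and their mean correlations with their own group were 0.976, 0.986 and 0.982, against 0.987 to 0.993 elsewhere. Member results that rest on this group are also given without single arrays of it where a call changed, and for several others. Values of the pathway lists are given with all its arrays only. The mean of each subset's markers differed in the labelled direction after PBS, although not every marker separated the subsets. The mean of 8 markers of CD8+ cDC was 10.31 to 10.52 in CD8+ cDC and 7.06 to 7.72 in CD11b+ cDC after PBS. The mean of 7 markers of CD11b+ cDC was 8.29 to 8.69 in CD11b+ cDC and 5.84 to 6.41 in CD8+ cDC, where Itgam, Clec4a4 and Clec10a were above the array median on no array. Clec10a was above it on only 3 of 24 arrays. Batf3, a CD8+ cDC marker, had PBS means of 9.46 in CD8+ and 9.24 in CD11b+ cDC of B6, and 9.36 and 9.10 in NOD. Irf4, a CD11b+ cDC marker, had means of 7.01 and 8.13 in B6 after PBS, in that order of subsets. After CpG its means were 8.21 and 7.98 in B6 and 8.16 and 7.83 in NOD.

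Start site windows are shown for Tlr9, whose level rose in every group of cells, for Tlr3, whose change differed between the subsets, and for Tlr6, which fell in CD8+ cDC. The RefSeq table on build GRCm38.p6 gave windows of 250 bases before to 50 bases after the gene start for 7 of the 10 genes, and none for Tlr4, Tlr7 or Unc93b1. The windows are chr9:106222348-106222647 on the plus strand for Tlr9, chr8:45410331-45410630 on the minus strand for Tlr3 and chr5:64959117-64959416 on the minus strand for Tlr6. Capitals mark matches, on either strand, to the interferon-stimulated response element core (GAAA, any 2 bases, GAAA), the shorter interferon regulatory factor core AANNGAAA that lies inside it, the kB-type motif (GGGA, any base, TT, any base, CC) and the PU.1-type motif GAGGAAGT. The Ets-IRF composite (GGAA, any 2 bases, GAAA) and the STAT-type motif TTCNNNGAA were also searched and have no match in these 3 windows, against matches in 2.72% and 8.3% of all windows. Tlr6 has another start window, chr5:64959999-64960298 on the minus strand, which holds the STAT-type motif at 2 positions and none of the other motifs.
Tlr9: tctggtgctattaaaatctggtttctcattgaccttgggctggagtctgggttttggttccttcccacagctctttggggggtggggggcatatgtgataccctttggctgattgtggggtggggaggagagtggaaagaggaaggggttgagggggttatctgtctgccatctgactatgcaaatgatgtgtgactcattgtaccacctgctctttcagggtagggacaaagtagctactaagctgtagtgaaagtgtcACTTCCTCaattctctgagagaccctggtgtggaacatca
Tlr3: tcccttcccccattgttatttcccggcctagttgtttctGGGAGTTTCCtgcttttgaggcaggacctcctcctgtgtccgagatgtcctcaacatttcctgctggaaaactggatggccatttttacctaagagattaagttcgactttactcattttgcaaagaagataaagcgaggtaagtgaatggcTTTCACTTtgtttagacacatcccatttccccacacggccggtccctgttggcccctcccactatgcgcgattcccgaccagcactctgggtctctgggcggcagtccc
Tlr6: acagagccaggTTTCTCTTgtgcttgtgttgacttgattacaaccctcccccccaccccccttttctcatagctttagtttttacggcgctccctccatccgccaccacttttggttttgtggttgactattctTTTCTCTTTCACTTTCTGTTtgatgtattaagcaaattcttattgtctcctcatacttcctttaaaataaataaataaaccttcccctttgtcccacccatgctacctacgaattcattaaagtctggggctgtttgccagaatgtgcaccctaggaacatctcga
Of the motifs searched the Tlr9 window holds the PU.1-type one, which 3.2% of 32851 windows of this length hold. The Tlr3 window holds the kB-type motif, found in 1.2% of windows, and the shorter interferon regulatory factor core, found in 23.9%. The Tlr6 window holds 2 overlapping matches to the response element core, against 3.44% of windows with a match. A match describes the letters of the window and says nothing of binding in these cells.

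**Figure D1:**
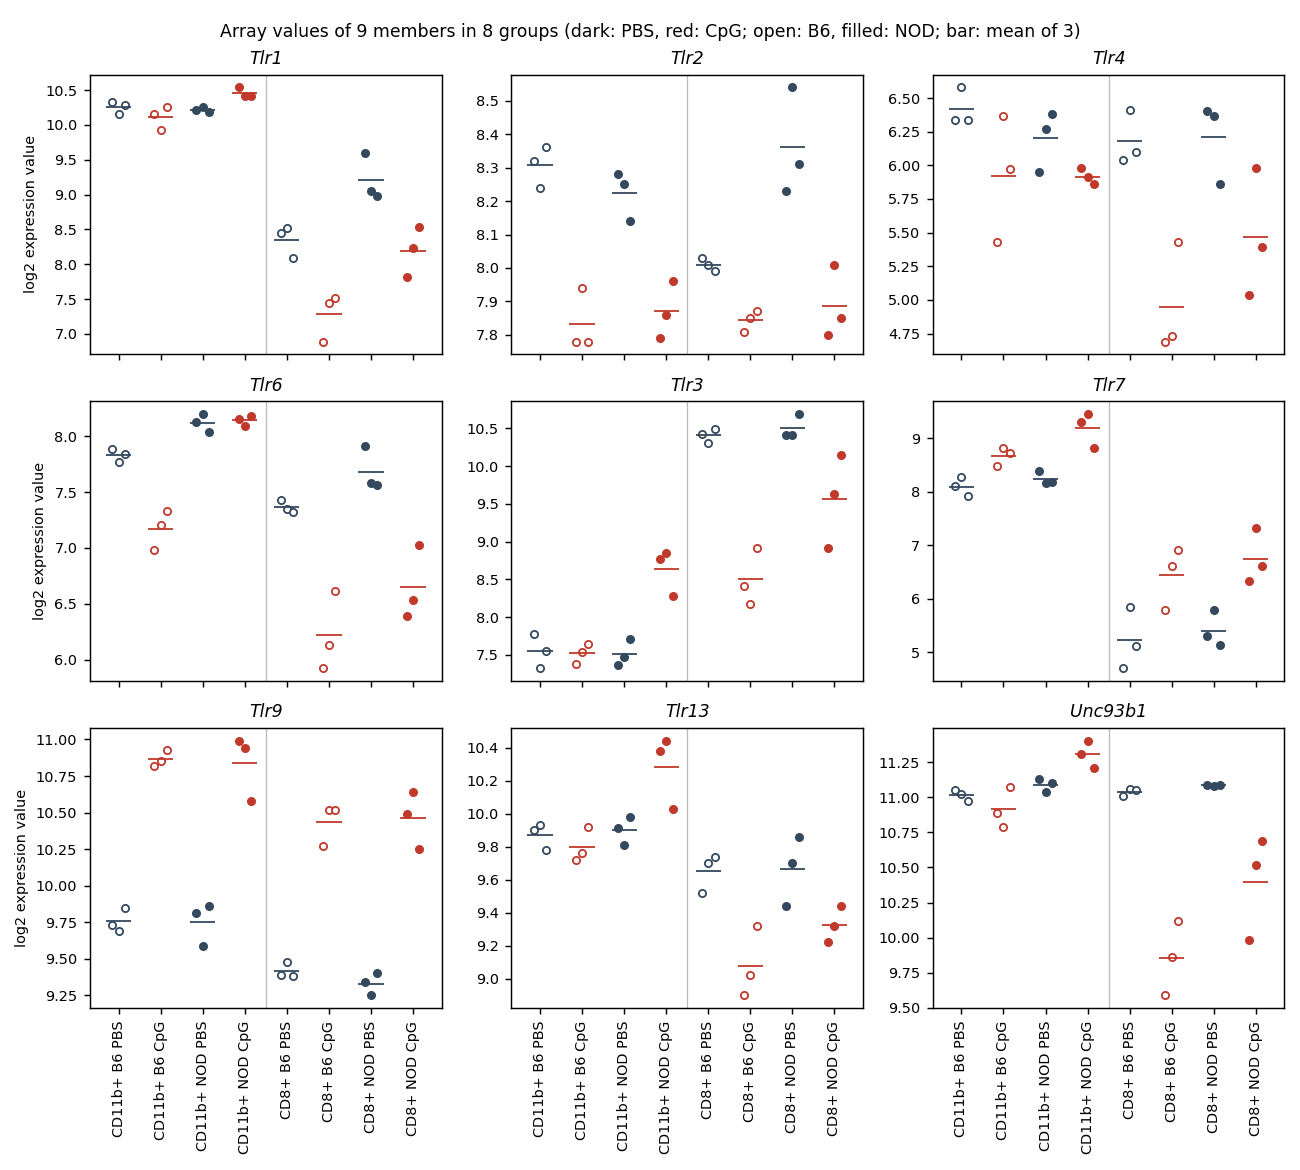
Log2 expression value (y axis) of 9 members on each of 24 arrays in 8 groups (x axis). Points are arrays, bars are means of 3, dark is PBS, red is CpG, open points are B6 and filled points are NOD. Tlr9 separated by injection in both subsets, Tlr7 by subset, and Tlr3 by subset after PBS, and Unc93b1 fell after CpG in CD8+ cDC, where its means were 9.85 in B6 and 10.40 in NOD against 11.04 and 11.08 after PBS.

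CpG against PBS, within each subset and strain, asks how the receptor genes respond to a TLR9 ligand in the animal. Tlr9 rose in all 4 kinds of cells, with differences from 1.02 to 1.13 (2.03-fold to 2.18-fold). In CD8+ cDC of both strains Tlr7 also rose, and Tlr1, Tlr3, Tlr4, Tlr6, Tlr13 and Unc93b1 fell. In CD11b+ cDC fewer members passed, and in NOD CD11b+ cDC Tlr3 rose where it fell in CD8+ cDC. The members called were 8 of 9 in B6 CD8+ cDC (2 rose, 6 fell), where 57.7% of all genes tested were called, and 9 of 9 in NOD CD8+ cDC (2 rose, 7 fell), where 40.7% were. They were 3 of 9 in B6 CD11b+ cDC (1 rose, 2 fell) beside 38.9% of all genes, and 5 of 9 in NOD CD11b+ cDC (4 rose, 1 fell) beside 15.4%. The median member difference was -1.07 in B6 CD8+ cDC and -0.69 in NOD CD8+ cDC, where the medians of all genes were -0.10 and -0.08. It was -0.10 in B6 and 0.24 in NOD CD11b+ cDC, beside -0.07 and -0.04. Natural killer cell markers moved in CD11b+ cDC. The mean of 8 of them was 6.54 to 7.35 after PBS and 9.82 to 10.82 after CpG in B6, where 7 rose and 1 fell with a median difference of 3.64, and 5.48 to 5.65 and 6.90 to 7.12 in NOD, where 5 rose with a median of 1.07. Their part in the member differences of CD11b+ cDC, among them the B6 falls of Tlr2 and Tlr6, was not tested. In sorted bulk samples, fewer cells of a type and less RNA per cell cannot be told apart. With every array centred on its median over the 11228 tested genes (not the array median given above), the median difference of all genes shifted by 0.246 and 0.146 in CD8+ cDC of B6 and NOD, and by 0.122 and 0.017 in CD11b+ cDC. No called member difference changed sign under it.

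**Figure D2:**
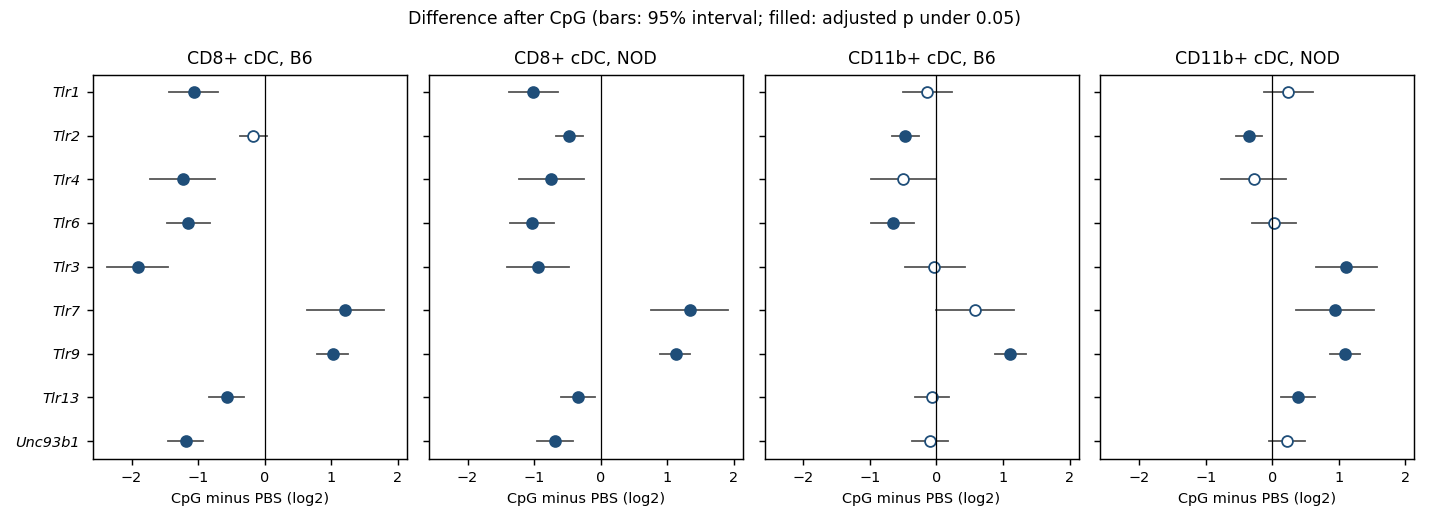
CpG minus PBS difference in log2 value (x axis) of 9 members (y axis) in each subset and strain, with 95% intervals, filled where the adjusted p was under 0.05. Tlr9 lay between 1.02 and 1.13 in all panels, while Tlr3 lay at -1.91 in B6 CD8+ cDC and at 1.11 in NOD CD11b+ cDC.

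Tlr9 encodes the receptor for unmethylated CpG DNA, the ligand injected here. In B6 CD8+ cDC it read 9.39, 9.48 and 9.38 after PBS and 10.27, 10.52 and 10.52 after CpG. In NOD CD8+ cDC it read 9.34, 9.25 and 9.40 after PBS and 10.49, 10.64 and 10.25 after CpG. All CpG arrays lay above all PBS arrays, and the differences were 1.02 ± 0.11 in B6 (adjusted p = 5.82e-08) and 1.13 ± 0.11 in NOD (adjusted p = 3.93e-08). In B6 CD11b+ cDC Tlr9 read 9.73, 9.69 and 9.85 after PBS and 10.82, 10.85 and 10.93 after CpG. In NOD CD11b+ cDC it read 9.81, 9.59 and 9.86 after PBS and 10.99, 10.94 and 10.58 after CpG. The groups again did not overlap, with differences of 1.11 ± 0.11 (adjusted p = 3.28e-08) and 1.09 ± 0.11 (adjusted p = 8.51e-08). Leaving out each array of CpG-treated NOD CD8+ cDC gave 1.04 to 1.23. The rise in CD8+ cDC differed between NOD and B6 by 0.10 ± 0.16, with a 95% interval from -0.22 to 0.43, and that in CD11b+ cDC by -0.02, with an interval from -0.35 to 0.30. Between subsets it differed by -0.09 in B6, with an interval from -0.41 to 0.24, and by 0.04 in NOD, with an interval from -0.28 to 0.36. Plasmacytoid dendritic cells also express Tlr9, and the mean of 6 of their markers was 7.83 to 8.06 after PBS and 7.60 to 7.99 after CpG in B6 CD8+ cDC, and 6.96 to 7.38 and 7.59 to 7.74 in B6 CD11b+ cDC. In NOD it was 8.17 to 8.24 and 7.98 to 8.64 in CD8+ cDC, and 6.91 to 7.22 and 7.47 to 7.65 in CD11b+ cDC. Of the 6 markers 1 rose and 2 fell in B6 CD8+ cDC, 1 rose and 1 fell in NOD CD8+ cDC, 2 rose in B6 CD11b+ cDC and 1 rose in NOD CD11b+ cDC. In CpG-treated B6 CD11b+ cDC the mean of Bst2 was 11.59 against 8.59 after PBS, while Siglech and Ccr9 were above the array median on no array. The part of these markers in the Tlr9 values was not tested.

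Tlr7 encodes the receptor for single-stranded RNA. In B6 CD8+ cDC it read 4.70, 5.85 and 5.12 after PBS and 5.80, 6.61 and 6.91 after CpG, with 1 CpG array just below the highest PBS array. In NOD CD8+ cDC it read 5.30, 5.79 and 5.13 after PBS and 6.33, 7.32 and 6.61 after CpG, without overlap. It rose by 1.21 ± 0.28 in B6 (adjusted p = 0.000771) and by 1.34 ± 0.28 in NOD (adjusted p = 0.000567), or by 1.06 to 1.56 without single CpG arrays of NOD. The PBS values of CD8+ cDC were near background, above the array median on 1 of 3 arrays in B6 and on 0 of 3 in NOD, so the size of the rise there is uncertain. In NOD CD11b+ cDC Tlr7 read 8.39, 8.17 and 8.18 after PBS and 9.30, 9.45 and 8.82 after CpG, and rose by 0.94 ± 0.28 (adjusted p = 0.0220). That call was lost without replicate 1 or 2 of the CpG arrays or replicate 2 or 3 of the PBS arrays, with adjusted p from 0.0667 to 0.107. In B6 CD11b+ cDC it read 8.10, 8.27 and 7.92 after PBS and 8.49, 8.81 and 8.73 after CpG, a difference of 0.58 ± 0.28 whose groups did not overlap but which did not pass (adjusted p = 0.107). It passed there with each array centred on its median (adjusted p = 0.0365) and in a fit of those 2 groups alone (adjusted p = 0.00234).

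Tlr3 encodes the receptor for double-stranded RNA, which signals through TRIF. In B6 CD8+ cDC it read 10.43, 10.31 and 10.49 after PBS and 8.41, 8.18 and 8.91 after CpG, a fall of 3.76-fold (-1.91 ± 0.22, adjusted p = 1.68e-07). In NOD CD8+ cDC it read 10.41, 10.41 and 10.69 after PBS and 8.92, 9.63 and 10.15 after CpG, a fall of 1.92-fold (-0.94 ± 0.22, adjusted p = 0.00177). Neither pair of groups overlapped, and the NOD array at 8.92 lay at the level of the highest B6 array, while the one at 10.15 lay close to the PBS arrays. Without replicate 1 of the CpG-treated NOD arrays the fall was -0.62 (adjusted p = 0.0191), and without replicate 3 it was -1.23 (adjusted p = 5.43e-05). In B6 CD11b+ cDC Tlr3 read 7.77, 7.32 and 7.55 after PBS and 7.38, 7.54 and 7.64 after CpG, with a difference of -0.03 and a 95% interval from -0.48 to 0.43. In NOD CD11b+ cDC it read 7.37, 7.47 and 7.71 after PBS and 8.77, 8.85 and 8.28 after CpG. It rose there by 1.11 ± 0.22 (adjusted p = 0.000832), with no overlap between the groups. Markers of CD8+ cDC moved with these values in CD8+ cDC. Their mean went from 10.31 to 10.45 after PBS to 9.39 to 9.71 after CpG in B6, with 6 of 8 markers falling and 1 rising, and from 10.38 to 10.52 to 9.72 to 10.32 in NOD, with 4 falling and 1 rising. In NOD CD11b+ cDC the same mean was 7.06 to 7.40 after PBS and 7.34 to 7.65 after CpG, with 3 markers rising. Group means there went from 7.20 to 8.77 for Ly75, 5.44 to 6.57 for Cd8a, 8.32 to 8.90 for Irf8 and 9.10 to 9.23 for Batf3. They went from 6.94 to 6.34 for Xcr1, 7.64 to 7.34 for Cadm1 and 7.88 to 7.75 for Clec9a, and Itgae was above the array median on no array. The mean of 10 markers of red pulp macrophages was 7.27 to 7.43 after PBS and 8.07 to 8.11 after CpG in NOD CD11b+ cDC. Of these 2 rose and 1 fell, and Cd5l was above the array median on no array. In NOD CD8+ cDC, where Tlr3 fell, the macrophage mean was 6.63 to 7.07 after PBS and 7.22 to 7.86 after CpG. In B6 it was 6.88 to 8.33 and 7.38 to 8.45 in CD8+ cDC, and 8.07 to 9.06 and 7.86 to 8.79 in CD11b+ cDC. The part of these markers in the Tlr3 values was not tested.

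Unc93b1, the chaperone, read 11.01, 11.06 and 11.05 after PBS and 9.59, 9.86 and 10.12 after CpG in B6 CD8+ cDC. In NOD CD8+ cDC it read 11.09, 11.08 and 11.09 after PBS and 9.98, 10.52 and 10.69 after CpG. It fell without overlap in both, with differences of -1.19 ± 0.13 in B6 (adjusted p = 7.24e-08) and -0.69 ± 0.13 in NOD (adjusted p = 0.000211), and the NOD value was -0.48, -0.75 and -0.84 without replicate 1, 2 and 3 of the CpG arrays. In CD11b+ cDC its values were 10.97 to 11.05 after PBS and 10.79 to 11.07 after CpG in B6, and 11.04 to 11.13 and 11.21 to 11.40 in NOD. The differences there were -0.10 (95% interval -0.37 to 0.17) and 0.22 (95% interval -0.05 to 0.49) and did not pass. Unc93b1 thus fell in the same cells in which Tlr9, one of the receptors it carries, rose.

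Tlr13 encodes a receptor for bacterial ribosomal RNA. It lay at 9.52 to 9.74 after PBS and 8.90 to 9.32 after CpG in B6 CD8+ cDC, and fell (-0.57 ± 0.12, adjusted p = 0.000414). In NOD it fell in CD8+ cDC (-0.34 ± 0.12, adjusted p = 0.0308), a change that differed from that in B6 by 0.23 ± 0.17 and not past the threshold (adjusted p = 0.523), and rose in CD11b+ cDC from 9.81 to 9.98 to 10.03 to 10.44 (0.38 ± 0.12, adjusted p = 0.0363). Both NOD calls were close to the threshold. The first was lost without replicate 1 or 2 of the CpG arrays or replicate 2 or 3 of the PBS arrays (adjusted p from 0.0638 to 0.172), after centring (adjusted p = 0.179) and in a fit of the 2 groups alone (adjusted p = 0.123). The second was lost without replicate 1 or 2 of the CpG arrays or any of the PBS arrays (adjusted p from 0.0501 to 0.176), without the filter (adjusted p = 0.0559) and after quantile normalization (0.24, adjusted p = 0.164). In B6 CD11b+ cDC the difference was -0.07, with an interval from -0.33 to 0.19.

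Of the surface receptors, TLR1 and TLR6 each pair with TLR2 to bind lipopeptides. Tlr1 read 8.45, 8.52 and 8.09 after PBS and 6.89, 7.45 and 7.51 after CpG in B6 CD8+ cDC. In NOD CD8+ cDC it read 9.59, 9.05 and 8.98 after PBS and 7.81, 8.23 and 8.54 after CpG. Tlr1 fell in both without overlap, with differences of -1.07 ± 0.18 (adjusted p = 2.21e-05) and -1.01 ± 0.18 (adjusted p = 0.000105), the latter -0.82 to -1.18 without single CpG arrays. In CD11b+ cDC it lay at 10.15 to 10.33 after PBS and 9.92 to 10.26 after CpG in B6, and at 10.18 to 10.26 and 10.41 to 10.54 in NOD, and neither difference passed (-0.14 and 0.24). Tlr6 read 7.43, 7.35 and 7.32 after PBS and 5.92, 6.13 and 6.61 after CpG in B6 CD8+ cDC, and 7.91, 7.58 and 7.56 and then 6.39, 6.53 and 7.03 in NOD. It fell in both (-1.15 ± 0.16, adjusted p = 1.93e-06, and -1.03 ± 0.16, adjusted p = 1.90e-05), with no overlap. In B6 CD11b+ cDC Tlr6 fell too, from 7.77 to 7.89 to 6.98 to 7.33 (-0.66 ± 0.16, adjusted p = 0.00176). In NOD CD11b+ cDC it was 8.04 to 8.20 after PBS and 8.09 to 8.18 after CpG, a difference of 0.02 with an interval from -0.31 to 0.35. The 2 genes are close paralogs, and whether their probe sets share signal was not tested.

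Tlr2 encodes the common partner of both. It fell in NOD CD8+ cDC from 8.23 to 8.54 to 7.80 to 8.01 (-0.47 ± 0.10, adjusted p = 0.000467), although not in a fit of those 2 groups alone (adjusted p = 0.0504). In CD11b+ cDC it fell in B6 from 8.24 to 8.36 to 7.78 to 7.94 (-0.47 ± 0.10, adjusted p = 0.000415) and in NOD from 8.14 to 8.28 to 7.79 to 7.96 (-0.35 ± 0.10, adjusted p = 0.0144). The last call was lost without replicate 1 of the CpG arrays or replicate 1 or 2 of the PBS arrays (adjusted p from 0.0515 to 0.0851). In B6 CD8+ cDC, where it already read 7.99 to 8.03 after PBS, the difference was -0.17 and did not pass (adjusted p = 0.145). Tlr4, the lipopolysaccharide receptor, was above the array median on 18 of 24 arrays, and in CpG-treated CD8+ cDC on 0 of 3 in B6 and 1 of 3 in NOD. It fell in B6 CD8+ cDC from 6.04 to 6.41, above the array median on 3 of 3 arrays, to 4.69 to 5.43, above it on 0 of 3 (-1.23 ± 0.24, adjusted p = 0.00011). In NOD CD8+ cDC it fell from 5.86 to 6.40 to 5.04 to 5.98, with overlap between the groups (-0.74 ± 0.24, adjusted p = 0.0148). Without replicate 1 of the CpG arrays that difference was -0.53 (adjusted p = 0.109), without replicate 1 or 2 of the PBS arrays the adjusted p was 0.0626 and 0.0572, and in the 2 groups alone it was 0.0566. In CD11b+ cDC the differences were -0.50 in B6 (adjusted p = 0.1) and -0.28 in NOD (adjusted p = 0.487). Without replicate 2 of the CpG arrays the B6 difference was -0.72 and passed (adjusted p = 0.0263).

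Whether CpG acted differently in the subsets was tested as an interaction of subset and CpG, the change in CD8+ cDC minus that in CD11b+ cDC. In B6 it was below 0 for 3 of 9 members, Tlr3 (-1.88 ± 0.31, adjusted p = 0.000267), Unc93b1 (-1.09 ± 0.18, adjusted p = 0.000317) and Tlr1 (-0.93 ± 0.25, adjusted p = 0.0163), where 13.4% of all genes passed. In NOD it was below 0 for 5 of 9, beside 6.8% of all genes. These were Tlr3 (-2.05 ± 0.31, adjusted p = 0.000286), Tlr1 (-1.25 ± 0.25, adjusted p = 0.00378), Unc93b1 (-0.91 ± 0.18, adjusted p = 0.00383), Tlr6 (-1.05 ± 0.22, adjusted p = 0.00584) and Tlr13 (-0.72 ± 0.17, adjusted p = 0.0142). Without single arrays of CpG-treated NOD CD8+ cDC the NOD values of Tlr3 were -1.73 to -2.34 and those of Unc93b1 -0.70 to -1.06, and all 5 calls held. Natural killer cell markers were below 0 in the same interaction for 8 of 8 genes in B6 (median -3.12) and 2 of 8 in NOD (median -0.76), and their part was not tested. The B6 call of Tlr1 was lost without replicate 1 of CpG-treated CD8+ cDC (-0.73, adjusted p = 0.0573) and after quantile normalization (-0.69, adjusted p = 0.0501), and the NOD call of Tlr13 in a fit of the 4 groups alone (adjusted p = 0.0592). Without replicate 3 of CpG-treated B6 CD8+ cDC, Tlr13 (-0.62, adjusted p = 0.0184), Tlr4 (-0.98, adjusted p = 0.0447) and Tlr6 (-0.68, adjusted p = 0.0296) also passed in B6, which made 6 members. Tlr13 passed there in a fit of the 4 groups alone too (-0.50, adjusted p = 0.0314). In the other direction, Tlr2 passed in B6 after centring (0.43, adjusted p = 0.0394, against 0.31 and 0.144 before). All genes called in the B6 interaction ran from 1105 to 1745 with single arrays left out, in place of 1502.

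The comparison of the subsets after PBS describes the receptor transcripts of the 2 kinds of cells in PBS-injected mice. Tlr3 was far higher in CD8+ cDC and Tlr7 far lower, each by 7.16-fold to 7.92-fold, and Tlr1 was lower. Members called were 6 of 9 in B6 (in CD8+ cDC 1 was higher, 5 were lower) beside 21.7% of all genes, and 5 of 9 in NOD (1 higher, 4 lower) beside 21.8%. The Tlr3 means were 10.41 in CD8+ and 7.55 in CD11b+ cDC of B6 (2.87 ± 0.22, 7.29-fold, adjusted p = 8.68e-10), and 10.51 and 7.52 in NOD (2.99 ± 0.22, 7.92-fold, adjusted p = 3.92e-10). The Tlr7 means were 5.23 and 8.10 in B6 (-2.87 ± 0.28, 7.31-fold, adjusted p = 3.56e-08) and 5.41 and 8.25 in NOD (-2.84 ± 0.28, 7.16-fold, adjusted p = 3.68e-08). With Tlr7 near background in CD8+ cDC, the size of that difference is uncertain. Tlr1 was lower in CD8+ cDC by -1.90 ± 0.18 in B6 (means 8.35 and 10.26, adjusted p = 1.87e-08) and by -1.01 ± 0.18 in NOD (means 9.20 and 10.22, adjusted p = 0.00013).

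The other subset differences after PBS were small. Tlr9 was lower in CD8+ cDC by -0.42 ± 0.11 in NOD (adjusted p = 0.0067) and by -0.34 ± 0.11 in B6 (adjusted p = 0.0288). Tlr6 was lower by -0.47 in B6 (adjusted p = 0.0363) and -0.44 in NOD (adjusted p = 0.0486), and Tlr2 by -0.30 in B6 (adjusted p = 0.0292), while in NOD Tlr2 differed by 0.14 and did not pass. In B6, without replicate 1 or 3 of either subset none of Tlr2, Tlr6 and Tlr9 passed (adjusted p from 0.0579 to 0.122), which left 3 of 9 members. Without replicate 2 of CD8+ cDC Tlr2 (adjusted p = 0.0704) and Tlr6 (adjusted p = 0.0862) were lost, and without replicate 2 of CD11b+ cDC Tlr6 (adjusted p = 0.0598). The NOD call of Tlr6 was lost without any 1 of the CD11b+ arrays or without replicate 2 or 3 of the CD8+ arrays (adjusted p from 0.0678 to 0.167). Without the filter on low values Tlr6 did not pass in either strain (adjusted p = 0.058 in B6 and 0.0762 in NOD) nor Tlr2 in B6 (adjusted p = 0.0575), and after centring Tlr2 (adjusted p = 0.0764) and Tlr9 (adjusted p = 0.0672) did not pass in B6. Unc93b1 differed by 0.03 in B6 and 0.00 in NOD, with intervals from -0.24 to 0.30 and from -0.27 to 0.27. Tlr13 differed by -0.22 and -0.23 and Tlr4 by -0.24 and 0.01, and none passed.

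**Figure D3:**
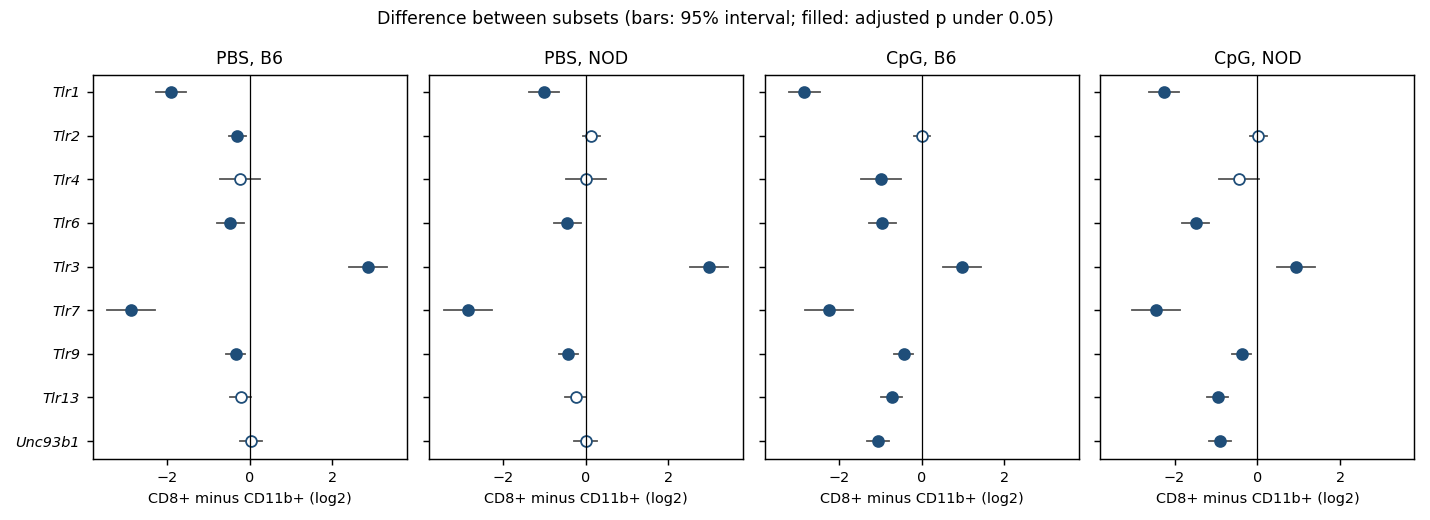
CD8+ minus CD11b+ cDC difference in log2 value (x axis) of 9 members (y axis) after PBS and after CpG in each strain, with 95% intervals, filled where the adjusted p was under 0.05. Tlr3 was at 2.87 and 2.99 after PBS and at 0.98 and 0.94 after CpG, and Unc93b1 moved from 0.03 and 0.00 to -1.06 and -0.91.

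After CpG more of the members differed between the subsets. Members called were 8 of 9 in B6 (in CD8+ cDC 1 was higher, 7 were lower) beside 37.4% of all genes, and 7 of 9 in NOD (1 higher, 6 lower) beside 38.6%. In the same comparisons 8 of 8 natural killer cell markers were lower in CD8+ cDC in B6 (median -3.84) and 5 of 8 in NOD (median -0.89), and their part in the member differences was not tested. Tlr3 was the 1 member higher in CD8+ cDC, by 0.98 ± 0.22 in B6 (adjusted p = 0.00132) and 0.94 ± 0.22 in NOD (adjusted p = 0.00175). In NOD the Tlr3 difference was 0.65 to 1.26 without single CpG arrays of CD8+ cDC, and its adjusted p was 0.0504 in a fit of the 2 groups alone. Tlr1 was lower by -2.83 ± 0.18 (7.12-fold, adjusted p = 5.48e-11) and -2.26 ± 0.18 (4.80-fold, adjusted p = 7.73e-10), and Tlr7 by -2.24 ± 0.28 (adjusted p = 1.27e-06) and -2.44 ± 0.28 (adjusted p = 2.80e-07). Unc93b1, not called between the subsets after PBS, was lower by -1.06 ± 0.13 (adjusted p = 9.47e-07) and -0.91 ± 0.13 (adjusted p = 6.31e-06). Tlr13 was lower by -0.72 and -0.96 and Tlr6 by -0.95 and -1.49 in B6 and NOD. Tlr4 was lower in B6 (-0.97 ± 0.24, adjusted p = 0.00229), with overlap between the groups, and differed by -0.45 in NOD (adjusted p = 0.141), or by -0.70 without replicate 2 of the CpG-treated CD8+ arrays (adjusted p = 0.026). Tlr9 was lower by -0.43 ± 0.11 in B6 (adjusted p = 0.00398) and -0.38 ± 0.11 in NOD (adjusted p = 0.00892), but neither passed after centring (-0.26 and -0.24, adjusted p = 0.0765 and 0.0962). The NOD call of Tlr9 was also lost without replicate 1 or 2 of CD11b+ cDC (adjusted p = 0.0556 and 0.0507) or replicate 3 of CD8+ cDC (adjusted p = 0.056), and in a fit of the 2 groups alone (adjusted p = 0.105). Tlr2 differed by 0.01 and 0.02, with intervals from -0.19 to 0.21 and from -0.18 to 0.22.

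NOD against B6 asks whether cells of the diabetes-prone strain have other levels of receptor transcripts. After PBS few members differed, and after CpG those that differed were higher in NOD, with Tlr3 and Unc93b1 among them in both subsets. Members called after PBS were 2 of 9 in CD8+ cDC beside 3.62% of all genes, and 0 of 9 in CD11b+ cDC beside 5.59%, where 0 members had an unadjusted p under 0.05 in limma. The shares of all genes are by adjusted p, and no share by unadjusted p was counted. After CpG they were 3 of 9 in CD8+ cDC beside 20.2% and 4 of 9 in CD11b+ cDC beside 23.2%. Each called member was higher in NOD. Of all genes called after CpG, 1390 were higher and 880 lower in NOD in CD8+ cDC, and 1565 and 1035 in CD11b+ cDC. The strain comparisons after CpG use arrays that the CpG comparisons above also use.

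Under PBS Tlr1 was higher in NOD CD8+ cDC by 0.85 ± 0.18 (means 9.20 and 8.35, adjusted p = 0.00519), without overlap. The call was lost without replicate 3 of B6 (0.72, adjusted p = 0.0528) or replicate 1 of NOD (0.66, adjusted p = 0.0604). Tlr2 was higher by 0.35 ± 0.10 (means 8.36 and 8.01, adjusted p = 0.0416). That call was lost without any 1 of the B6 arrays or without replicate 2 or 3 of NOD (adjusted p from 0.0755 to 0.254), and after centring (adjusted p = 0.0676), without the filter (adjusted p = 0.0764) and in the 2 groups alone (adjusted p = 0.0881). B cells also carry both genes. The mean of 5 B cell markers was 7.85 to 9.04 in NOD and 6.83 to 7.79 in B6 CD8+ cDC after PBS, with 2 of 5 higher in NOD, and its part in these differences was not tested. In CD11b+ cDC the same mean was 6.88 to 8.30 in NOD and 6.69 to 7.37 in B6, and Tlr1 differed by -0.04, with an interval from -0.41 to 0.33. The strain difference of Tlr1 in CD8+ cDC minus that in CD11b+ cDC was 0.89 ± 0.25 and did not pass (adjusted p = 0.142), and it passed in a fit of the 4 groups alone (adjusted p = 0.0288). In limma 0 of 9 members passed in that interaction after PBS, beside 0.882% of all genes, although 2, Tlr1 and Tlr2, had an unadjusted p under 0.05. After CpG 0 of 9 passed too, beside 5.3%, although 2, Tlr1 and Tlr6, had an unadjusted p under 0.05. Both shares of all genes are by adjusted p and cannot be set against the counts by unadjusted p. Without replicate 1 of CpG-treated NOD CD8+ cDC Tlr1 passed (0.76, adjusted p = 0.0433), and without its replicate 3 Tlr6 did (-0.73, adjusted p = 0.0352). All genes called in the interaction after CpG ran from 419 to 1057 with single arrays left out, in place of 595.

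After CpG Tlr3 was higher in NOD by 1.07 ± 0.22 in CD8+ cDC (means 9.57 and 8.50, adjusted p = 0.00157) and by 1.11 ± 0.22 in CD11b+ cDC (means 8.63 and 7.52, adjusted p = 0.000692). Groups did not overlap in either subset, although the lowest NOD CD8+ array (8.92) and the highest B6 array (8.91) were nearly equal. Without replicate 1, 2 and 3 of CpG-treated NOD CD8+ cDC the first difference was 1.39, 1.03 and 0.78. Tlr1 was higher in NOD CD8+ cDC by 0.91 ± 0.18 (adjusted p = 0.000921), with 0.74 to 1.10 without single CpG arrays of NOD. Unc93b1 was higher by 0.54 ± 0.13 in CD8+ cDC (adjusted p = 0.00503), with overlap, and not without replicate 3 of NOD (0.40, adjusted p = 0.0549). In a fit of the 2 groups alone none of Tlr1, Tlr3 and Unc93b1 passed in CD8+ cDC (adjusted p = 0.0727, 0.098 and 0.188). With the replicate number as a block, which pairs the arrays of this comparison, Tlr6 passed (0.43, adjusted p = 0.0431, against 0.0584 without the block). Tlr6 also passed without replicate 3 of B6 (0.62, adjusted p = 0.00649) or replicate 1 of NOD (0.56, adjusted p = 0.011). So did Tlr4 (0.76 and 0.73, adjusted p = 0.0287 and 0.0226), and Tlr13 without replicate 3 of B6 (0.36, adjusted p = 0.0477). With single arrays left out, all genes called in this strain comparison ran from 1111 to 3945, in place of 2270. In that comparison the 5 B cell markers averaged 7.37 to 8.72 in NOD and 6.17 to 7.11 in B6, with 2 higher in NOD, and the 8 markers of CD8+ cDC averaged 9.72 to 10.32 and 9.39 to 9.71, with 3 higher. Their part in these differences was not tested.

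In CD11b+ cDC after CpG Tlr6 was higher in NOD by 0.97 ± 0.16 (means 8.14 and 7.17, adjusted p = 7.51e-05), Tlr13 by 0.48 ± 0.12 (means 10.28 and 9.80, adjusted p = 0.00586) and Unc93b1 by 0.39 ± 0.13 (means 11.31 and 10.92, adjusted p = 0.032). Groups did not overlap for these or for Tlr3, Tlr1 (0.34, adjusted p = 0.179) and Tlr7 (0.51, adjusted p = 0.202). The Unc93b1 call was lost without replicate 1 or 2 of either strain (adjusted p from 0.0678 to 0.124). Tlr1 (adjusted p = 0.0301) and Tlr7 (adjusted p = 0.0349) passed in a fit of the 2 groups alone. Natural killer cell markers moved with this comparison. The mean of 8 of them was 9.82 to 10.82 in CpG-treated B6 CD11b+ cDC and 6.90 to 7.12 in NOD, with 7 of 8 lower in NOD, while Klrb1c and Eomes were above the array median on no NOD array. The mean of 7 markers of CD11b+ cDC was 7.43 to 7.61 in B6 and 8.10 to 8.20 in NOD after CpG, with 3 higher in NOD. The mean of the 5 B cell markers was 6.77 to 8.30 in NOD and 6.11 to 6.90 in B6, with 2 higher in NOD. The part of these markers in the member differences was not tested. Tlr9 differed between the strains by -0.03 in these cells and by 0.02 in CD8+ cDC, with intervals from -0.26 to 0.20 and from -0.21 to 0.25.

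**Figure D4:**
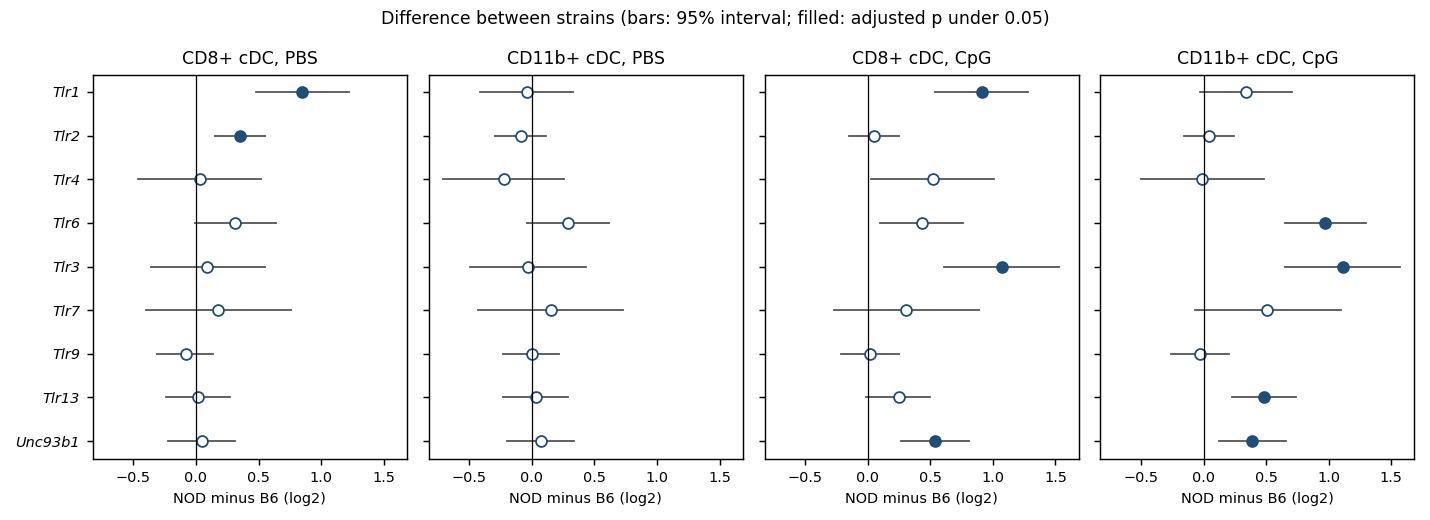
NOD minus B6 difference in log2 value (x axis) of 9 members (y axis) in each subset after PBS and after CpG, with 95% intervals, filled where the adjusted p was under 0.05. Tlr3 lay at 0.09 and -0.03 after PBS and at 1.07 and 1.11 after CpG, while Tlr9 stayed between -0.08 and 0.02.

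Whether CpG acted differently in the strains was tested as an interaction of strain and CpG. In CD11b+ cDC 1 of 9 members passed, beside 4.38% of all genes. This was Tlr3, whose CpG difference was 1.14 ± 0.31 larger in NOD than in B6 (adjusted p = 0.0389). In the same interaction 5 of 8 natural killer cell markers were below 0 (median of the 8 -2.08), and their part in the Tlr3 value was not tested. The call was close to the threshold. It was lost without replicate 1 or 2 of either CpG group, replicate 1 or 3 of B6 after PBS or replicate 1 or 2 of NOD after PBS (adjusted p from 0.0713 to 0.113), and without the filter (adjusted p = 0.0521). Tlr6 (0.68 ± 0.22, adjusted p = 0.0862) passed only in a fit of the 4 groups alone (adjusted p = 0.00891). In CD8+ cDC 0 of 9 passed in limma, beside 4.02% of all genes, although 3 members, Tlr2, Tlr3 and Unc93b1, had an unadjusted p under 0.05. That share is by adjusted p and cannot be set against the count by unadjusted p, for which no share of all genes was counted. Tlr3 was at 0.97 ± 0.31 (adjusted p = 0.0893) and Unc93b1 at 0.50 ± 0.18 (adjusted p = 0.143). Without replicate 1 of CpG-treated NOD CD8+ cDC both passed (1.29, adjusted p = 0.00196, and 0.71, adjusted p = 0.00195). They also passed without replicate 3 of CpG-treated B6 CD8+ cDC (1.18, adjusted p = 0.03, and 0.63, adjusted p = 0.043). With single arrays left out, the number of all genes called in this interaction also moved, from 231 to 2071 in place of 451.

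The remaining genes of the pathway were described from lists by role. Their counts after CpG stand beside the 57.7%, 40.7%, 38.9% and 15.4% of all genes called in CD8+ cDC of B6 and NOD and in CD11b+ cDC of B6 and NOD, and a share near these is no result about a list. Tlr12, a profilin receptor, was the only other receptor gene tested, since Tlr8 was above the array median on 2 of 24 arrays and Tlr5 was not analysed here. It was higher in CD8+ cDC after PBS by 2.04 ± 0.22 in B6 and 1.43 ± 0.22 in NOD, and fell there after CpG (-1.68 and -1.16), to 5.85 to 6.42 in B6 and 5.83 to 6.40 in NOD, near the array medians. Its PBS mean in CD11b+ cDC was 5.78 in each strain, also near the array medians, so the sizes of these differences are uncertain. Among partners of the surface receptors 5 of 6 were tested. After CpG 1 rose and 2 fell in CD8+ cDC of each strain, with medians of -0.59 in B6 and -0.19 in NOD. Cd36, a scavenger receptor that aids TLR2, fell there (-2.68 in B6 and -1.44 in NOD), as did Cd180, a TLR4 homologue (-1.68 and -0.76), and Ly96, which encodes the TLR4 partner MD-2, rose by 0.52 and 0.97. In CD11b+ cDC 2 fell in B6, and 1 rose and 1 fell in NOD. After CpG 4 of the 5 were higher in NOD than in B6 in each subset, beside 20.2% of all genes called in CD8+ and 23.2% in CD11b+ cDC. Among them were Cd180 (1.14 ± 0.18 in CD8+ and 0.78 ± 0.18 in CD11b+ cDC) and Cd36 (1.31 ± 0.27 and 0.77 ± 0.27). The Cd36 mean in CpG-treated B6 CD11b+ cDC was 5.65, near background. The part of the B cell and natural killer cell markers given above in these strain differences was not tested.

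Of the genes for folding, trafficking and cleavage of endosomal receptors 13 of 15 were tested, and most did not pass after CpG. In CD8+ cDC 3 rose and 2 fell in B6 (median 0.14), and 3 rose and 1 fell in NOD (median 0.17). In CD11b+ cDC 3 rose and 2 fell in B6 (median 0.02), and 3 rose and none fell in NOD (median 0.14). Lgmn, a lysosomal endopeptidase that can cleave TLR9, rose in all 4, by 2.81, 2.26, 1.44 and 1.54 in CD8+ cDC of B6 and NOD and in CD11b+ cDC of B6 and NOD. Hsp90b1, the chaperone gp96, fell in B6 CD8+ cDC (-0.52 ± 0.17, adjusted p = 0.0123). Slc15a4, an endolysosomal transporter, was lower in CD8+ than in CD11b+ cDC after PBS by -1.02 in B6 and -0.82 in NOD. Among 4 of 6 nucleases tested, Dnase1l3 rose in all 4 comparisons, by 0.34 to 0.67, and Pld4, an exonuclease that degrades single-stranded nucleic acid in endosomes, fell in CD8+ cDC (-1.56 in B6 and -0.93 in NOD). In CD8+ cDC 1 nuclease gene rose and 2 fell in B6, and 1 rose and 1 fell in NOD. In CD11b+ cDC 1 rose and 1 fell in B6, and 1 rose in NOD.

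**Figure D5:**
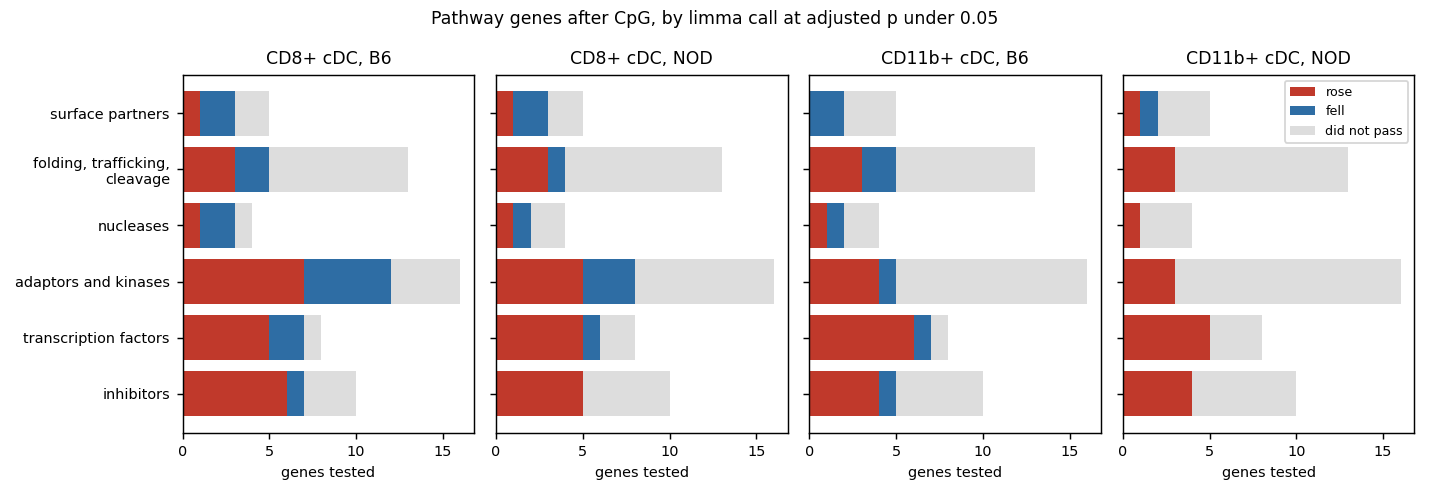
Number of tested genes (x axis) of 6 pathway lists (y axis) that rose, fell or did not pass after CpG in each subset and strain. Of 8 transcription factor genes 5 or 6 rose in each panel, and of 16 adaptor and kinase genes 7 rose and 5 fell in B6 CD8+ cDC while 3 rose in NOD CD11b+ cDC.

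Of the adaptors and kinases 16 of 21 were tested. After CpG 7 rose and 5 fell in B6 CD8+ cDC (median 0.20) and 5 rose and 3 fell in NOD CD8+ cDC (median 0.01). In CD11b+ cDC 4 rose and 1 fell in B6 (median 0.02) and 3 rose in NOD (median 0.11). These are 12, 8, 5 and 3 of 16, beside 57.7%, 40.7%, 38.9% and 15.4% of all genes. Traf6, the ubiquitin ligase downstream of MyD88, rose in each, by 1.29 and 0.84 in CD8+ cDC and 0.85 and 0.44 in CD11b+ cDC of B6 and NOD. Myd88 itself did not pass, with differences of 0.27, 0.16, 0.09 and 0.33. Ticam2, the adaptor TRAM that serves TLR4, fell in B6 CD11b+ cDC (-1.10), and after PBS was lower in CD8+ cDC by -1.55 in B6 and -1.60 in NOD. Tbk1, the kinase that activates IRF3, rose in CD8+ cDC by 1.22 in B6 and 0.84 in NOD, and was higher in NOD than in B6 after PBS in CD8+ (0.68 ± 0.10, adjusted p = 9.59e-05) and CD11b+ cDC (0.67 ± 0.10, adjusted p = 8.20e-05).

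Of 8 downstream transcription factor genes tested, 5 rose and 2 fell in B6 CD8+ cDC (median 1.04), 5 rose and 1 fell in NOD CD8+ cDC (median 0.82), 6 rose and 1 fell in B6 CD11b+ cDC (median 0.79) and 5 rose in NOD CD11b+ cDC (median 0.43). The medians of all genes were -0.10, -0.08, -0.07 and -0.04 and the shares called 57.7%, 40.7%, 38.9% and 15.4%. Irf7, which drives type I interferon genes after TLR7 and TLR9 signals, rose by 3.31, 3.8, 3.23 and 4.04 in that order, and Relb, an NF-kB subunit, by 1.79, 1.41, 1.11 and 0.95. After PBS Irf7 was lower in NOD than in B6, by -0.64 ± 0.14 in CD8+ cDC (adjusted p = 0.00645) and -1.01 ± 0.14 in CD11b+ cDC (adjusted p = 2.73e-05). Irf8, a factor that CD8+ cDC depend on, rose in CD11b+ cDC by 1.38 in B6 and 0.58 in NOD and was lower in NOD after CpG there (-1.24 ± 0.14, adjusted p = 5.41e-07). Irf8 is also among the 8 markers of CD8+ cDC used above. Of 10 inhibitors tested, 6 rose and 1 fell in B6 CD8+ cDC, 5 rose in NOD CD8+ cDC, 4 rose and 1 fell in B6 CD11b+ cDC and 4 rose in NOD CD11b+ cDC. Tnfaip3, the deubiquitinase A20, rose by 1.24, 0.89, 0.85 and 0.58, and Tnip3, which binds A20, by 1.52, 0.74 and 2.07 in the first 3. The Tnip3 means after PBS there were 5.21, 5.43 and 5.06, near background, so the sizes of its rises are uncertain. In CD11b+ cDC after CpG the mean of the natural killer cell markers was 9.82 to 10.82 in B6 and 6.90 to 7.12 in NOD. Their part in the CD11b+ values of the pathway lists, among them Irf8 and Tnip3, was not tested.

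The order of the 8 group means differed from gene to gene. For Tlr9 the 4 CpG groups came first, each overlapping its neighbour in that order, and they were clear of the 4 PBS groups, with CpG-treated B6 CD8+ cDC at 10.44 and PBS-treated B6 CD11b+ cDC at 9.76. For Tlr1 and Tlr7 the 4 CD11b+ groups lay above the 4 CD8+ groups, with clear gaps from 10.11 to 9.20 and from 8.10 to 6.75. For Tlr3 the PBS-treated CD8+ groups were highest at 10.51 and 10.41 and overlapped one another, CpG-treated NOD CD8+ cDC followed clear of them at 9.57, and 3 CD11b+ groups from 7.55 to 7.52 overlapped at the bottom. For Tlr4 every neighbouring pair overlapped. For Unc93b1 the 4 PBS groups and CpG-treated B6 CD11b+ cDC lay between 11.09 and 10.92, with CpG-treated NOD CD11b+ cDC clear above them at 11.31 and both CpG-treated CD8+ groups below, at 10.40 and 9.85.

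Genes whose 8 group means followed a member most closely were found by Pearson's r over those means, given as a description since the means share arrays and only 8 points enter. For Tlr9 they were Samd9l (0.993), Ifit3b (0.992) and Isg20 (0.991), each known as an interferon-induced gene. For Tlr7 they were Apobec1 (0.989), 1700029I15Rik (0.988) and Zfp868 (0.987), and for Tlr3 Atp6v0a2 (0.976), Rtca (0.973) and Snora62 (0.971). For Tlr1 they were Cd4 (0.989), which marks many CD11b+ cDC, Flt3l (0.987) and Ccdc59 (0.983). For Unc93b1 they were Cops7b (0.994), Plek (0.989) and Zfp709 (0.987), for Tlr6 Dnajc24 (0.991), Gpr35 (0.990) and BC002059 (0.990), and for Tlr13 Slc25a11 (0.988), Sgk3 (0.981) and Cwc15 (0.981). For Tlr2 the closest was Bcl7a (0.961) and for Tlr4 Rprd1b (0.990).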

How the data were processed

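The log2 expression values of 35556 probe sets on 24 arrays were deposited by the authors. RMA and Partek are named per the submitters' processing notes, with no version given there, and 5 ng of RNA per sample was amplified per the labels' protocols. The array model was not settled, since the protocol's name and the probe set identifiers differ. Platform annotation gave 1 symbol to 21789 probe sets, several to 1621 and none listed to 12146, and 21698 were updated by gene ID to 19938 genes. Where a gene had several probe sets (999 genes), the one with the highest mean over 24 arrays was used. The 11228 genes that exceeded the median of the array on 3 or more of 24 arrays were fitted with limma 3.58.1 in R 4.3.3 with the R package data.table (version 1.17.8), with 1 mean per group, 16 residual degrees of freedom, eBayes with a trend and Benjamini-Hochberg adjustment within each contrast at 0.05. The number of arrays limits the precision. There were 12 comparisons of groups and 6 interactions, 2 of which (subset by strain) were added after values had been seen. The fit was tested on simulated data.

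Every member is named. From each pathway list and comparison, at most 3 called genes with the largest difference and at most 2 not called with the highest mean may be named, and for likeness the 3 genes with the highest r. Members and lists were chosen with earlier results of these data known. Replicate numbers come from the sample titles, which do not say what they stand for. Deviations of same-numbered arrays correlated above 0.1 in every pair in 8 comparisons, from 0.105 to 0.544, among them NOD against B6 in CD8+ cDC after CpG (0.242 to 0.544), and not in the other 4 or the interactions. Alternatives were no filter, a filter of 12 arrays, averaging over probe sets, quantile normalization, centring on each array's median over the tested genes, eBayes without the trend, the compared groups alone, the replicate number as a block, and each array left out.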

Additional observations from a re-analysis of the deposited data

Results flagged for a closer look

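The change after CpG differed between groups of cells by the test of the interaction itself for these members, all values being log2 differences. For Tlr3 in CD11b+ cDC, NOD minus B6 was 1.14. For CD8+ minus CD11b+ cDC in B6 the values were -0.93 for Tlr1, -1.88 for Tlr3 and -1.09 for Unc93b1. In NOD they were -1.25 for Tlr1, -2.05 for Tlr3, -1.05 for Tlr6, -0.72 for Tlr13 and -0.91 for Unc93b1.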

How the results depend on the processing

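No called member difference changed sign under any alternative run. The 12-array filter, the mean of probe sets and eBayes without the trend kept the call of all 162 member values. Quantile normalization lost 2 calls, no filter 6, centring 6 (2 gained) and the compared groups alone 10 (6 gained). The count of members called in NOD against B6 CD8+ cDC after PBS was 1 in place of 2 without the filter, after centring and in the compared groups alone. In NOD against B6 CD8+ cDC after CpG it was 0 in place of 3 in the compared groups alone. In the strain by CpG interaction in CD11b+ cDC it was 0 without the filter and 2 in the compared groups alone, in place of 1, and in the subset by strain interaction after PBS 1 in place of 0 in the latter.

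With the replicate number as a block, 4 calls were gained and none lost. The block made the strain by CpG interaction in CD8+ cDC 1 member (Tlr3, adjusted p = 0.047) in place of 0, and all genes there 728 in place of 451, and 766 in place of 492 in CD11b+ cDC. Tlr7 in B6 CD11b+ cDC (adjusted p = 0.0419) and Tlr13 in the B6 subset by CpG interaction (adjusted p = 0.0369) also passed with the block, where the numbers do not pair the arrays.

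Leaving out each array in turn gave these members called. After CpG against PBS they were 8 to 8 in B6 CD8+, 7 to 9 in NOD CD8+, 3 to 4 in B6 CD11b+ and 2 to 5 in NOD CD11b+ cDC. Over all 11228 genes the counts were 5774 to 6303, 3285 to 5107, 3525 to 4075 and 1139 to 1836 in that order. Between subsets the members called were 3 to 5 in B6 and 4 to 5 in NOD after PBS, and 8 to 8 and 6 to 8 after CpG. The counts over all genes were 1941 to 2096, 2036 to 2147, 3218 to 4198 and 3422 to 4824. Between strains the members called were 0 to 1 in CD8+ and 0 to 0 in CD11b+ cDC after PBS, and 2 to 6 and 3 to 4 after CpG. The counts over all genes were 271 to 336, 424 to 487, 1111 to 3945 and 1877 to 2366. For the interactions the members called were 0 to 2 and 0 to 1 for strain by CpG in CD8+ and CD11b+ cDC, 2 to 6 and 5 to 5 for subset by CpG in B6 and NOD, and 0 to 0 and 0 to 1 for subset by strain after PBS and CpG. The counts over all genes were 231 to 2071, 297 to 524, 1105 to 1745, 479 to 1676, 63 to 91 and 419 to 1057.

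Counts over all genes in the compared groups alone were 2584 in place of 4567 for CpG in NOD CD8+ cDC, 2554 in place of 4335 for the subsets in NOD after CpG and 390 in place of 2270 for the strains in CD8+ cDC after CpG. They were 164 in place of 451 and 945 in place of 492 for strain by CpG in CD8+ and CD11b+ cDC, 303 in place of 764 for subset by CpG in NOD, and 181 in place of 99 and 266 in place of 595 for subset by strain after PBS and CpG. With the 12-array filter subset by strain after PBS gave 51 in place of 99. The cause of these changes was not tested. Leaving out single arrays gave 1111 to 3945 for the strains in CD8+ cDC after CpG, 231 to 2071 for strain by CpG in CD8+ cDC and 479 to 1676 for subset by CpG in NOD. Among the members, signal over background limits Tlr4 in CpG-treated and Tlr7 in PBS-treated CD8+ cDC. Of the pathway genes it limits Tnip3 after PBS, Tlr12 in CD11b+ cDC and Cd36 in CpG-treated B6 CD11b+ cDC.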
